A study of Homo sapiens with 12 samples.

Results

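The genes described here are 10 members of the BCL2 family, the proteins that decide whether the mitochondrial outer membrane stays intact or is opened during apoptosis. The members were taken from a list of names with no threshold on a measured value, and all 10 are among the 55765 gene symbols counted in 12 RNA-seq libraries of SH-SY5Y cells. SH-SY5Y is a human neuroblastoma line, a clone derived from SK-N-SH, which is the line the deposited source name gives, so every library comes from the cells of 1 clonal line. The cells were driven towards a neuron-like state with all-trans retinoic acid (ATRA) for 7 days, and hydrogen peroxide (H2O2) was used as the source of oxidative stress. In the co-treatment experiment, 3 libraries came from cells given H2O2 together with ATRA over the whole 7 days and 3 from control cells given ATRA alone. For the pre-treatment protocol, 3 libraries came from cells given H2O2 for 72 h and then ATRA for 7 days, and 3 further control libraries from cells with ATRA alone. The paper's methods put the H2O2 dose at 10 μM, whereas the deposited design text puts it at 10 mM. The comparisons ask whether the balance between survival and death members of the family moved with H2O2, and whether it moved differently under the 2 protocols.

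The family is divided by role. Guardians (BCL2, BCL2L1 encoding BCL-XL, BCL2L2 encoding BCL-w, and MCL1) hold death members in check, effectors such as BAK1 form the pores that release cytochrome c, and BH3-only proteins (BCL2L11 encoding BIM, BID, BAD, BMF and HRK) neutralise guardians or activate effectors when a cell is stressed. In neurons and neuroblastoma cells, BCL2 and MCL1 are known as survival factors, and BIM and HRK as BH3-only members whose transcripts respond to the loss of trophic support. These roles are background, and many members are also regulated at the protein level, which RNA does not show.

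What the members share in sequence is the BH3 core, the short stretch through which a BH3-only protein docks into the groove of a guardian. The coding bases of this core are printed for 6 members, at least 1 per role and including the members with the largest responses. They were read from the hg19 (GRCh37) genome along the canonical transcripts of GENCODE v44, 24 bases each and in the sense of the gene. Capitals mark the codon of the leucine or methionine that opens the core and the codons of the small residue and the aspartate that follow 3 residues later.
BCL2: CTCcgccaggccGGCGACgacttc
MCL1: TTAcgacgggttGGGGATggcgtg
BAK1: CTCgccatcatcGGGGACgacatc
BCL2L11: TTGcggcgtattGGAGACgagttt
BID: CTCgcccaggtcGGGGACagcatg
HRK: CTCaaggcgctaGGCGACgagctg
These stretches lie at chr18:60985588-60985611 (minus strand) in BCL2, chr1:150551347-150551370 (minus) in MCL1, chr6:33543170-33543193 (minus) in BAK1, chr2:111907680-111907703 (plus) in BCL2L11, chr22:18222187-18222210 (minus) in BID and chr12:117318981-117319004 (minus) in HRK, all within coding exons. The pattern was widened at its last positions until it took in all 10 members, so its presence in them is by construction. It was found in 961 of 19204 canonical proteins in all.

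The genes are spread over 10 chromosomes. BCL2 is the longest, at chr18:60790579-60987361, and its annotated exons add up to 12612 bases, against 1708 bases for BAD at chr11:64037302-64052176. BCL2L11 lies at chr2:111876955-111926021 and BID at chr22:18216904-18257536. For BCL2, BID and HRK no annotated exon of another gene overlaps theirs. The overlap is largest for BCL2L1, where 41.3% of the exon bases are shared with the antisense gene ABALON, followed by BCL2L2 (24.8%, with HOMEZ, PPP1R3E and the read-through gene BCL2L2-PABPN1) and BAD (23.7%, with GPR137). The libraries were made with a stranded kit, but the strand setting of the counting is not given in the sources used here, so the reads in these stretches cannot be assigned with certainty. The share is 10.8% for BCL2L11, with MIR4435-2HG.

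The reads assigned to genes numbered from 27576276 in the shallowest library to 98287391 in the deepest. Control replicate 3 of the pre-treatment experiment stood apart from the other 2 controls of its group. The reads outside annotated features came to 0.800 and 0.830 per counted read in pre-treatment controls 1 and 2 and to 0.200 in control 3, against 0.343 to 0.462 in the treated libraries and 0.263 to 0.429 in the co-treatment libraries. Small-RNA genes took 1.58% and 2.88% of the counted reads in controls 1 and 2, 17.6% in control 3 and 13.3 to 15.1% in the treated libraries. The paper's clustering figure was read as showing 5 pre-treatment libraries, without control 3 and without a stated reason. The pre-treatment results of the members are therefore given over all 6 libraries and without control 3. For some of the other genes only the fit without control 3 is given. The cells matched their label in part: TUBB3, a tubulin of neurons and neuroblastoma cells, was at 486 to 985 CPM (counts scaled by library size), whereas TH, an enzyme of catecholamine synthesis on the list of noradrenergic markers, had 1 to 16 reads per library. The summed level of 5 blood and immune markers was at most 0.768 CPM, and that of 5 glial markers was between 3.65 and 6.24 CPM. The labels do not say that the replicates were grown as separate cultures, so the p-values measure the spread between these libraries.

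The CPM were scaled with TMM factors over the 12 libraries, and divided by the summed exon length in kilobases wherever different genes are compared. On that per-kilobase scale MCL1 was the highest member in all 4 groups, with a mean of 51.4 ± 4.97 CPM per kb (SD, n = 12). BCL2 was second in every group, at 28.2 ± 4.46, and BAD, which binds BCL-XL when it is not phosphorylated, followed at 15.7 ± 4.23. The ranges of MCL1 and BCL2 did not overlap in any group, and those of BCL2 and BAD did not overlap except in the pre-treatment controls. The 6 members between BAD and HRK had means within a narrow band, from 9.23 for BCL2L1 and 9.18 for BCL2L11 through 8.55 for BMF, 7.47 for BID and 7.22 for BAK1 to 6.84 for BCL2L2. Neighbours in this band overlapped over the replicates in every group, except BCL2L1 and BMF in the pre-treatment controls and BCL2L1 and BCL2L2 in the pre-treatment H2O2 libraries. BAD was separated from the band in the co-treatment groups and overlapped it in the pre-treatment groups.

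**Figure D1:**
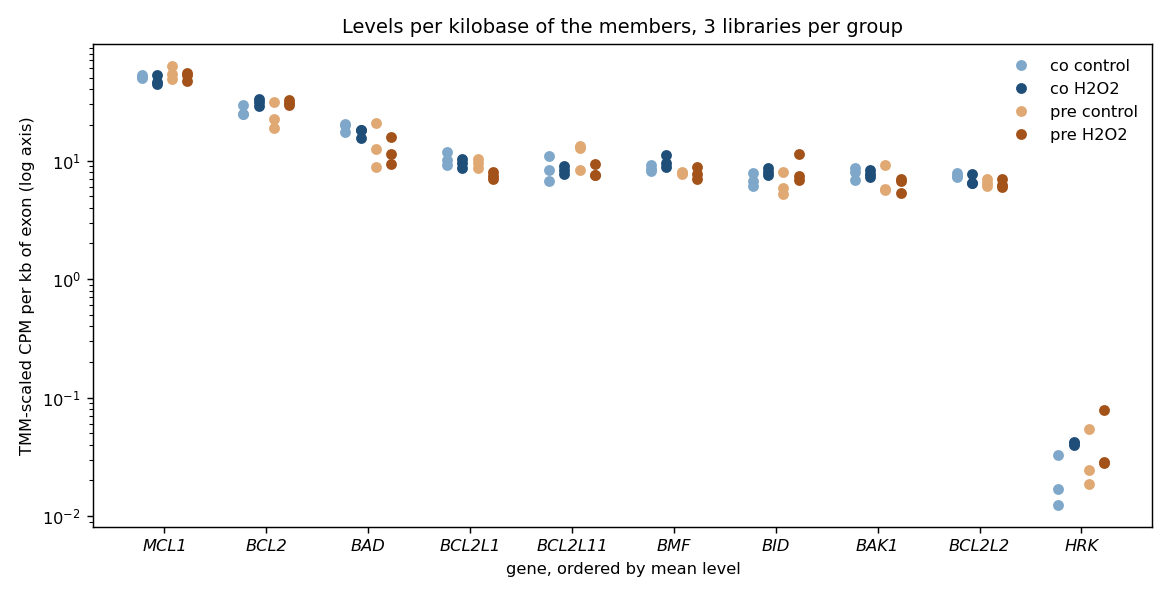
Level of each member in the 12 libraries, as TMM-scaled CPM per kilobase of exon on a log axis, with the genes ordered by their mean and 1 point per library coloured by group. MCL1 and BCL2 lead, 6 members lie between 5.20 and 13.3 CPM per kb, and HRK reaches at most 0.0786 CPM per kb.

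HRK, which encodes the BH3-only protein Harakiri, was nearly silent. Its libraries held 11, 4 and 4 reads in the co-treatment controls and 8, 17 and 15 with H2O2, and 7, 17 and 11 in the pre-treatment controls and 19, 13 and 43 with H2O2. These counts correspond to 0.0853 to 0.539 CPM, and their counting error alone is large at this depth. All 10 members nevertheless passed the filter on low counts in each comparison.

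Within each library the guardians made up most of the family's summed per-kilobase level. Their share was between 63.8% and 71.3%, that of BAK1 between 3.93% and 5.92%, and that of the 5 BH3-only members between 24.1% and 30.9%. The mean guardian share was 65.1 ± 1.32% in the co-treatment controls and 64.9 ± 0.926% with H2O2, and 67.1 ± 3.61% in the pre-treatment controls and 69.0 ± 1.72% with H2O2 (SD, n = 3 each). The ranges of treated and control libraries overlapped in both experiments for all 3 shares. The summed level itself was 129 to 157 CPM per kb over the 12 libraries. A lower level in bulk RNA may mean fewer cells that express the gene or less RNA per cell, and the 2 cannot be told apart.

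**Figure D2:**
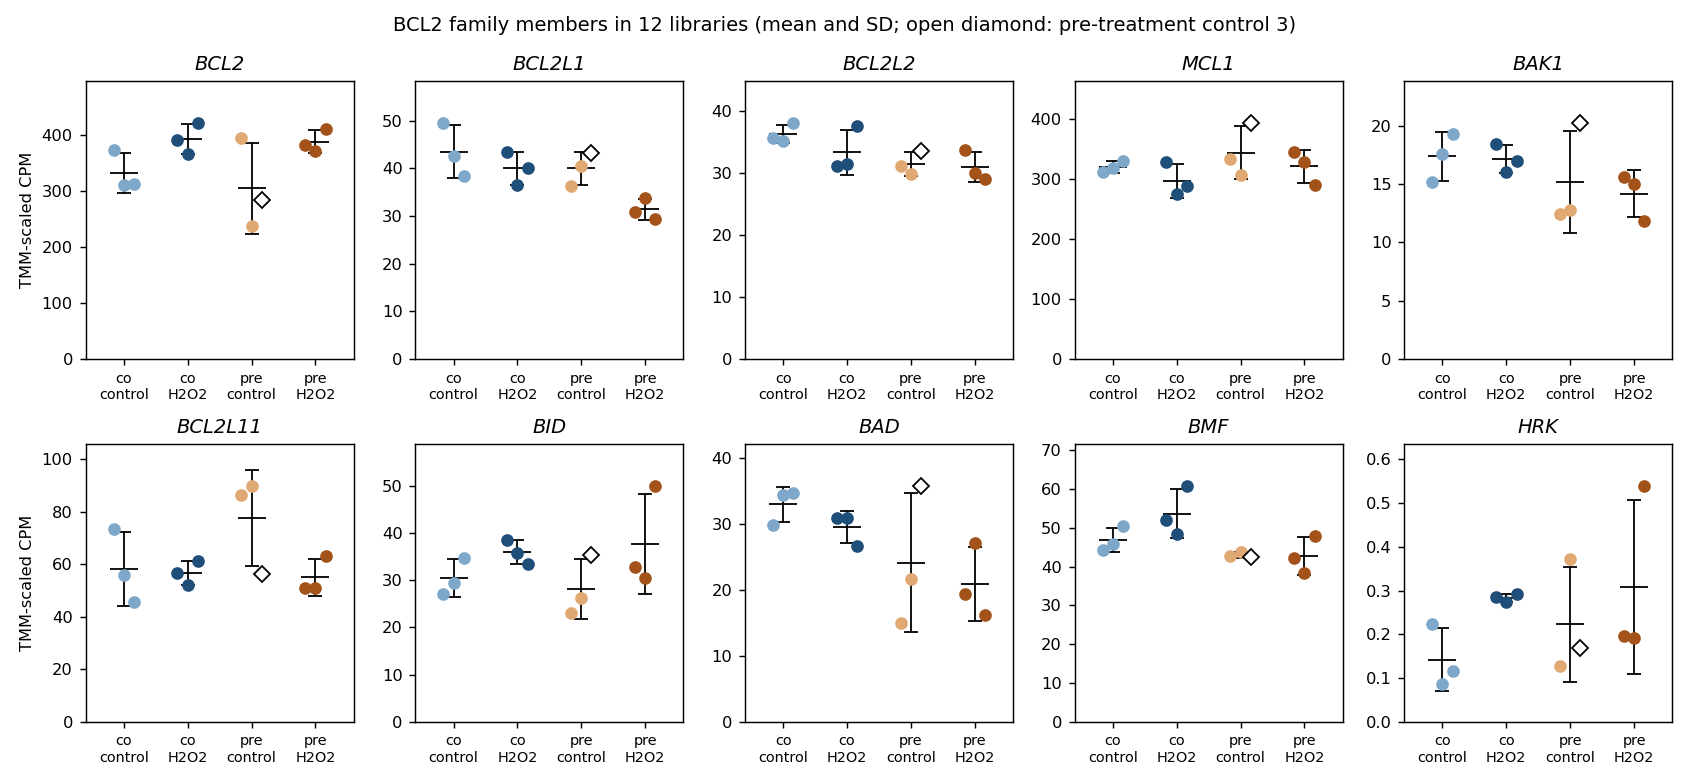
TMM-scaled CPM of each member in every library by group, 1 panel per gene with its axis starting at 0, with the group mean and SD drawn behind the points. The open diamond is pre-treatment control 3, which lies with the H2O2 libraries for BCL2L11 and BID and away from the other 2 controls for BAK1 and BAD.

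Exposure to H2O2 during differentiation left no member called. The quasi-likelihood test of edgeR, with the false discovery rate (FDR) taken over all 22089 genes tested and calls made at an FDR below 0.05, called 0 of 10 members, beside 0.598% of all genes (132 genes, 74 higher and 58 lower). At an unadjusted p under 0.05 it had 0 of 10 members and 8.15% of all genes. The exact test of edgeR and DESeq2 also called 0 members, with 0 at an unadjusted p under 0.05 in each. With scaling by library size alone, the calls over all genes were 57 higher and 23 lower, so that the share of higher calls went from 56.1% to 71.3%. The median log2 fold change (log2FC) of the members was -0.03, beside 0.00 for all genes tested.

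Among the guardians, BCL2 was measured at 375, 312 and 314 CPM in the co-treatment controls and at 392, 367 and 421 CPM with H2O2. The groups overlapped through control 1, and the difference was a log2FC of 0.24 (SE 0.129, 95% interval -0.04 to 0.52, edgeR adjusted p = 0.70). MCL1, whose protein is short-lived, was at 310, 318 and 329 CPM in controls and at 327, 274 and 287 CPM with H2O2, a log2FC of -0.11 (interval -0.37 to 0.16). BCL2L1 differed by -0.12 (interval -0.41 to 0.17) and BCL2L2 by -0.12 (interval -0.39 to 0.16). For none of the 4 guardians did the interval reach a change of 1 on the log2 scale in either direction.

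The effector BAK1 was at 15.2, 17.6 and 19.3 CPM in controls and at 18.5, 16.1 and 17.0 CPM with H2O2 in this experiment. The treated libraries fell inside the range of the controls, with a log2FC of -0.01 (interval -0.33 to 0.30, edgeR adjusted p = 0.993).

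Among the BH3-only members, BCL2L11 was at 73.3, 55.7 and 45.5 CPM in co-treatment controls and at 56.7, 51.9 and 61.3 CPM with H2O2. Its controls spread more widely than its treated libraries and enclosed them, with a log2FC of -0.04 (interval -0.40 to 0.32). BID, which is cleaved by caspase-8 and carries death receptor signals to mitochondria, was at 27.1, 29.5 and 34.8 CPM in controls and at 38.5, 35.7 and 33.4 CPM with H2O2. Its log2FC was 0.24 (interval -0.05 to 0.53, edgeR adjusted p = 0.730), and the groups overlapped. BAD and BMF, a BH3-only protein that binds the dynein light chain, had log2FC values of -0.16 (interval -0.44 to 0.12) and 0.20 (interval -0.08 to 0.48). HRK had the largest difference, a log2FC of 0.96, with an interval from -0.35 to 2.28 (SE 0.605, edgeR adjusted p = 0.781). It was the only member whose 3 treated libraries lay above the 3 controls, and such a lack of overlap was seen in 14.0% of all genes tested.

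The pre-treatment comparison over all 6 libraries also called no member. The edgeR quasi-likelihood test called 0 of 10 members and 6 of 24743 genes (0.0242%), all 6 of them higher, and at an unadjusted p under 0.05 it had 0 members and 11.2% of all genes. The exact test called 0 members with 0 at an unadjusted p under 0.05, and DESeq2 called 0 with 1. The largest log2FC values were -0.46 for BCL2L11 (SE 0.205, interval -0.93 to 0.01, edgeR adjusted p = 0.454), 0.45 for BID (interval -0.14 to 1.03, adjusted p = 0.550), 0.38 for BCL2 (interval -0.13 to 0.88, adjusted p = 0.554) and -0.32 for BCL2L1 (interval -0.69 to 0.04, adjusted p = 0.490), beside 0.52 for the sparse HRK. The other 5 members were within 0.2 of 0 on the log2 scale. BCL2L1 was the only member without overlap between the groups: it was at 36.4, 40.4 and 43.2 CPM in the controls and at 30.9, 33.9 and 29.4 CPM in the treated libraries. Among all genes tested, 16.4% showed such a lack of overlap.

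Without control 3, BCL2L11 was lower and BID was higher after pre-treatment. BCL2L11 was at 86.5 and 89.8 CPM in controls 1 and 2, at 56.5 CPM in control 3 and at 51.0, 51.1 and 63.3 CPM in the treated libraries. The treated libraries lay below both controls, while control 3 lay among them. Against controls 1 and 2 the log2FC was -0.61 (SE 0.129, interval -0.90 to -0.31, edgeR adjusted p = 0.0122), a level 0.657 times that of the controls. BID was at 23.0 and 26.2 CPM in controls 1 and 2, at 35.2 CPM in control 3 and at 32.8, 30.5 and 49.9 CPM in the treated libraries. All 3 treated libraries were above both controls, with control 3 again within their range. The log2FC was 0.69 (SE 0.219, interval 0.19 to 1.19, edgeR adjusted p = 0.0489), or 1.61-fold.

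These 2 calls among 10 members stand beside a background in which 26.1% of 26350 genes were called (3489 higher and 3382 lower), so the share of members called was not above that of all genes. Groups that did not overlap were seen for 3 of 10 members (BCL2L11, BID and BCL2L1) and for 57.2% of all genes. The median log2FC of the members was 0.17, beside 0.01 for all genes. Scaling by library size alone moved the median of all genes to -0.21 and the calls to 1384 higher and 4892 lower, a share of higher calls of 22.1% in place of 50.8%. Under that scaling BCL2L11 had a log2FC of -0.82, BID was no longer called (0.48, edgeR adjusted p = 0.159), and BCL2L1 was called lower (-0.44, adjusted p = 0.0370).

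Single libraries decided both calls. The adjusted p of BCL2L11 rose above 0.05 without pre-treatment control 2 (0.0866), treated replicate 1 (0.0561) or treated replicate 2 (0.0507), and over its 13 alternatives it ranged from 2.45e-05 to 0.0866, with the log2FC between -0.82 and -0.55. That of BID rose above 0.05 without control 1 (0.186), control 2 (0.145) or treated replicate 1 (0.0705), with DESeq2-type scaling factors within edgeR (0.0550) and with another filter on low counts (0.0507). Its range was 0.000723 to 0.186, with the log2FC between 0.40 and 0.82. Treated replicate 3, the highest library for BID, moved its log2FC from 0.69 to 0.40 when left out, and the call was kept. The treated libraries were also set against control 3 alone, an alternative chosen after seeing the data. A lone control has no spread of its own, so only the size of a difference is given. The treated mean was then 0.976 times control 3 for BCL2L11 and 1.07 times for BID.

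The remaining guardians and BH3-only members were not called without control 3. BCL2 was at 396 and 237 CPM in controls 1 and 2, 284 CPM in control 3 and 384, 372 and 411 CPM in the treated libraries, so its controls spread far more widely than its treated libraries. Its log2FC was 0.37 (interval -0.09 to 0.82, edgeR adjusted p = 0.204), and it became 0.80 (adjusted p = 0.0173) without control 1 and 0.05 (adjusted p = 0.850) without control 2, the ends of its range over the alternatives. BCL2L1 had a log2FC of -0.22 (interval -0.51 to 0.07, adjusted p = 0.231). MCL1 was at 333, 305 and 392 CPM in the 3 controls and at 344, 328 and 290 CPM in the treated libraries, with a log2FC of 0.08 (interval -0.21 to 0.36). BCL2L2 and BMF had log2FC values of 0.09 (interval -0.21 to 0.39) and 0.05 (interval -0.25 to 0.36).

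The differences of BAK1 and BAD shifted most between the 2 sets of controls and changed sign, as did the smaller one of MCL1. BAK1 was at 12.4 and 12.8 CPM in controls 1 and 2, 20.2 CPM in control 3 and 15.6, 15.0 and 11.9 CPM in the treated libraries. BAD was at 15.0 and 21.6 CPM in controls 1 and 2, 35.7 CPM in control 3 and 19.3, 27.1 and 16.1 CPM in the treated libraries. Against controls 1 and 2 both values were positive, 0.24 for BAK1 (interval -0.16 to 0.63) and 0.26 for BAD (interval -0.30 to 0.81), and over all 6 libraries both were negative, -0.08 and -0.19. Neither was called in either fit.

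**Figure D3:**
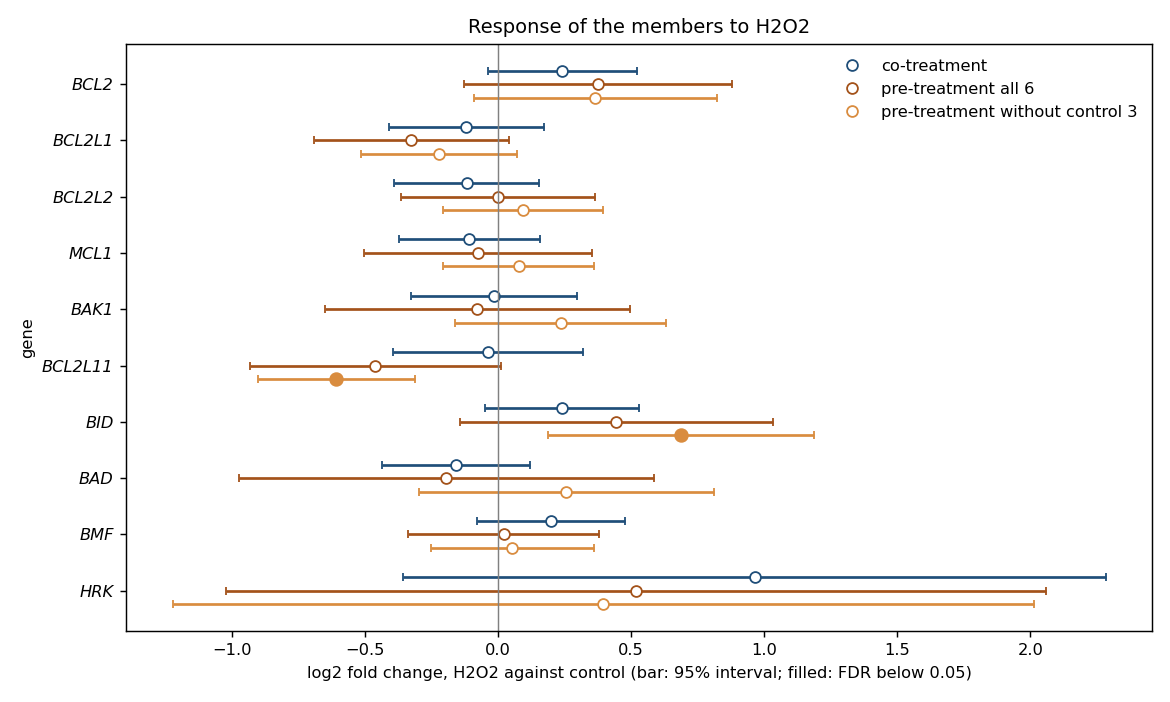
log2FC of each member for H2O2 against control in 3 comparisons, with 95% intervals from the edgeR quasi-likelihood fit and filled points at an FDR below 0.05. BCL2L11 and BID are filled in the pre-treatment comparison without control 3, and all co-treatment intervals include 0.

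Other values moved with the pre-treatment calls. Controls 1 and 2, which had the highest BCL2L11 and the lowest BID, were also the libraries with 0.800 and 0.830 reads outside annotated features per counted read, against 0.200 to 0.462 in control 3 and the treated libraries. Of 7 markers of substrate-adherent, mesenchymal-type neuroblastoma cells, 6 were tested without control 3 and 4 were higher after pre-treatment (VIM, CD44, COL3A1 and YAP1), and VIM and COL3A1 were also called over all 6 libraries. Of the other 2 tested, COL1A1 had a log2FC of -1.05 (edgeR adjusted p = 0.0567; the exact test and DESeq2 both called it lower) and FN1 one of -0.53 (adjusted p = 0.171). The summed level of this list was 122 to 263 CPM in the pre-treatment controls and 200 to 277 CPM in the treated libraries, and PRRX1 of this list was at 0 in each control. Among 8 noradrenergic markers, PHOX2A, GATA3 and DBH were lower and ISL1 was higher, though the exact test and DESeq2 did not call ISL1 and DESeq2 did not call DBH, with sums of 1374 to 2225 CPM and 975 to 1345 CPM. MAPT was the 1 of 5 neuronal markers called (lower), and MKI67 the 1 of 5 markers of dividing cells (lower). No glial or blood marker was called by the quasi-likelihood test, with 0 of 6 tested at an unadjusted p under 0.05, while the exact test called the blood marker PTPRC higher. Over all 6 libraries that test called 0 noradrenergic, neuronal or dividing-cell markers, while DESeq2 called PHOX2A and DBH lower. Control 3 lay within the treated range for GATA3 (29.6 CPM against 24.7 to 59.5), ISL1 (154 against 152 to 179) and MKI67 (105 against 62.7 to 189). For PHOX2A, DBH and MAPT all controls lay above the treated libraries. The part of these values in the BCL2L11 and BID results was not tested. In the co-treatment experiment, VIM was higher (log2FC 1.16), with no member called.

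The interaction between H2O2 and experiment tested directly whether a member responded differently under the 2 protocols. Over all 12 libraries 0 of 10 members and 0.0287% of 24407 genes were called (6 positive and 1 negative, or 3 and 1 with scaling by library size alone), with 0 members at an unadjusted p under 0.05, and DESeq2 also called 0 members, with 0 at an unadjusted p under 0.05. The adjusted p of the members was at least 0.629. Without control 3, 8.02% of 25668 genes were called (852 positive and 1206 negative, or 329 and 1784 with scaling by library size alone) and 0 members, with 1 at an unadjusted p under 0.05 in edgeR and 1 in DESeq2. In edgeR that member was BCL2L11, whose response was lower by 0.62 on the log2 scale under pre-treatment than under co-treatment (log2 difference -0.62, SE 0.232, interval -1.12 to -0.13, edgeR adjusted p = 0.100). It was called when co-treatment control 1, the highest of its group at 73.3 CPM, was left out (-0.82, adjusted p = 0.0111), and its adjusted p over the 17 alternatives ranged from 0.0111 to 0.296. The log2 difference of BID was 0.39 (interval -0.15 to 0.94, adjusted p = 0.331). So the pre-treatment calls of BCL2L11 and BID are not shown to be particular to that protocol.

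Ratios within a library do not depend on the scaling factor. The ratio of BCL2 to BCL2L11, in CPM per kb, was 2.73, 2.99 and 3.68 in the co-treatment controls and 3.70, 3.78 and 3.68 with H2O2. In the pre-treatment experiment it was 2.45, 1.41 and 2.69 in the controls and 4.02, 3.89 and 3.47 with H2O2. All 3 pre-treated libraries were above all 3 of their controls, control 3 included, and the means were 3.79 ± 0.286 and 2.18 ± 0.676 (SD, n = 3 each). The co-treatment groups had means of 3.14 ± 0.491 and 3.72 ± 0.0525, with control 3 of that experiment lying among the treated libraries. Among single genes tested in these 6 libraries, 16.4% showed such a lack of overlap, and the share among ratios was not computed. These ratios were not tested.

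The ratio of MCL1 to BCL2L11 was 4.17, 3.69 and 7.52 in the pre-treatment controls and 7.30, 6.95 and 4.97 in the treated libraries. Here control 3 was above all of the treated libraries and the groups overlapped. BCL2L11 made up 37.0%, 33.3% and 18.6% of the BH3-only per-kilobase sum in the pre-treatment controls and 22.2%, 20.3% and 24.1% in the treated libraries, so that control 3 was again closer to the treated libraries than to the other 2 controls. The ratio of BCL2L1 to BAK1, a guardian that binds BAK and the effector itself, was 1.54, 1.66 and 1.13 in the pre-treatment controls and 1.04, 1.19 and 1.30 with H2O2, and 1.72, 1.28 and 1.05 against 1.24, 1.20 and 1.25 in the co-treatment experiment. In both experiments the groups overlapped.

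**Figure D4:**
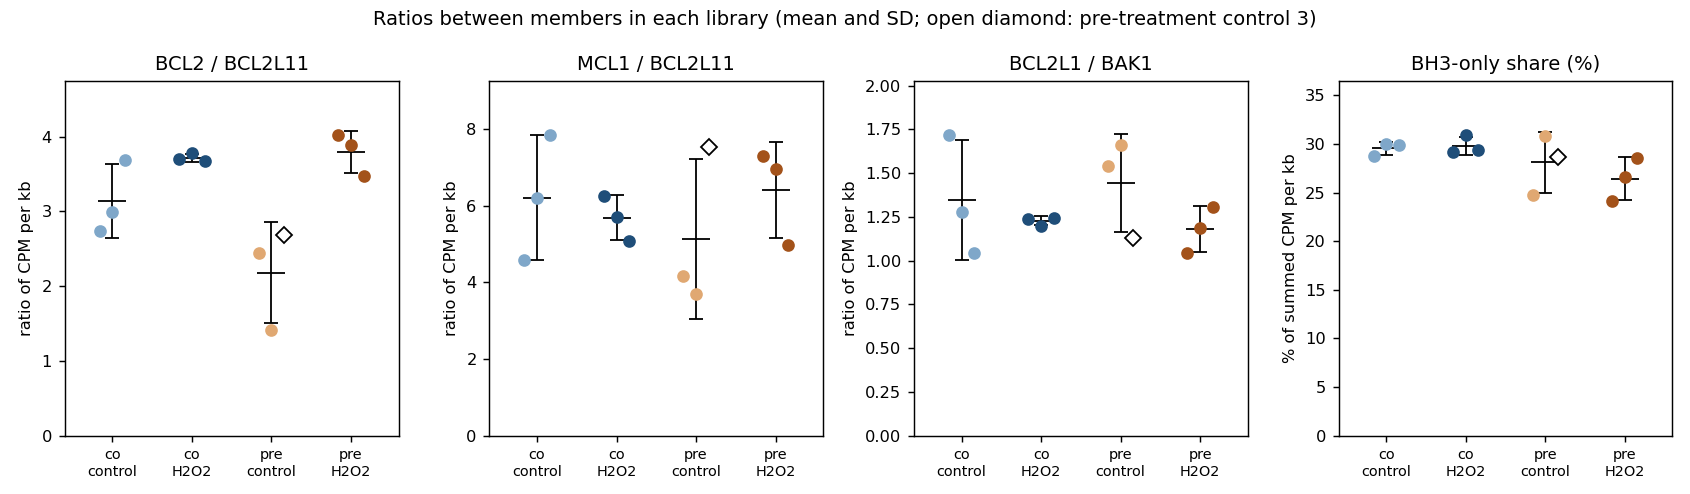
Ratios of per-kilobase levels between members, and the share of the 5 BH3-only members in the summed level of the 10, in each library by group with mean and SD. The BCL2 to BCL2L11 ratio is the panel in which the 3 pre-treated libraries (3.47 to 4.02) lie above all 3 of their controls (1.41 to 2.69). Of all single genes tested in the same libraries, 16.4% lacked overlap, and the ratios were not tested.

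By Pearson's r of log2 CPM over the 12 libraries, the genes most like BCL2L11 among 24406 were RP11-690G19.3 (r = 0.982) and KIAA1671 (r = 0.980), and those most like BID were DHODH (r = 0.945) and RP11-90H3.1 (r = 0.925). The 12 points come from 4 groups and include control 3, and the coefficients are descriptions.

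The rest of the death pathway was described by 7 lists of 63 genes that surround the members: other BCL2 family genes, mitochondrial release and apoptosome, caspases, inhibitor of apoptosis proteins, the death receptor arm upstream of BID, transcription factors upstream of members, and proteins that bind or degrade members. In the co-treatment comparison 58 of these genes were tested and 0 were called by the edgeR quasi-likelihood test, with 8 at an unadjusted p under 0.05. The exact test and DESeq2 each called 3 higher: the effector-like family member BOK, and the death receptors FAS and TNFRSF10A. FAS was at 0.585 to 0.775 CPM in the controls and 1.39 to 2.46 CPM with H2O2, with a log2FC of 1.52 (edgeR quasi-likelihood adjusted p = 0.0686). BOK was at 19.7 to 23.8 CPM in controls and at 29.3 to 36.5 CPM with H2O2, with a log2FC of 0.61 (adjusted p = 0.0951). BOK, FAS and TNFRSF10A are named here after their values were seen.

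In the pre-treatment comparison over all 6 libraries, 0 of 59 pathway genes were called by the quasi-likelihood test and 6 were at an unadjusted p under 0.05. The exact test called 0 and DESeq2 called 1, BIRC3, an inhibitor of apoptosis protein (log2FC 1.61, quasi-likelihood adjusted p = 0.320), which is named after its value was seen. Without control 3, 11 of 59 were higher and 5 lower, 31 were at an unadjusted p under 0.05, and the list median was 0.17. Over all genes in the same fit 26.1% were called and 40.5% were at an unadjusted p under 0.05, with a median of 0.01, so 16 calls among 59 genes were near that background.

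In the list of mitochondrial release 5 of 9 were higher and 0 lower without control 3, and over all 6 libraries 0 of 9 were called. CYCS, which encodes cytochrome c, was at 105 and 86.2 CPM in controls 1 and 2, 146 CPM in control 3 and 145 to 155 CPM in the treated libraries, a log2FC of 0.72 (edgeR adjusted p = 0.00574). VDAC3 and VDAC2, channels of the outer mitochondrial membrane, had log2FC values of 0.84 (adjusted p = 0.00406) and 0.61 (adjusted p = 0.00622), and HTRA2, a protease released with cytochrome c, 0.64 (adjusted p = 0.0128). For VDAC2, VDAC3 and HTRA2 control 3 was far from the other 2 controls and above every treated library. It was at 103 CPM for VDAC2, against 79.5 to 85.4 CPM in the treated libraries. For VDAC3 it was at 104 CPM against 90.0 to 102 CPM, and for HTRA2 at 46.6 CPM against 31.9 to 37.8 CPM. VDAC1, named after its value was seen, had a log2FC of 0.44 (adjusted p = 0.0308). Here too control 3, at 198 CPM, was above the treated libraries, at 143 to 158 CPM. Over all 6 libraries the log2FC was 0.44 for CYCS, 0.42 for VDAC3, 0.21 for VDAC2, 0.19 for HTRA2 and 0.09 for VDAC1.

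Of the other BCL2 family genes, 12 of 13 were tested without control 3. BCL2A1, an inducible guardian, was higher (log2FC 2.89, edgeR adjusted p = 0.0285), on 1 and 4 reads in controls 1 and 2, 8 in control 3 and 37, 33 and 19 in the treated libraries. BCL2L14, a divergent family member, was lower (log2FC -1.95, adjusted p = 0.00210), at 3.58 and 3.88 CPM in controls 1 and 2 and at 0.779 to 1.05 CPM in the treated libraries, with control 3 at 0.701 CPM. BAX, the effector that is not among the 10 members, was chosen after its values were seen and had a log2FC of 0.56 (adjusted p = 0.0605). It was at 35.3 and 25.3 CPM in controls 1 and 2, 54.2 CPM in control 3 and 36.2 to 49.8 CPM in the treated libraries.

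Of the 6 caspases tested without control 3, CASP2 was lower (log2FC -1.30, edgeR adjusted p = 0.00262), at 58.7 and 69.8 CPM in controls 1 and 2, 25.5 CPM in control 3 and 20.4 to 30.4 CPM in the treated libraries. Among 6 genes of the death receptor arm FAS was higher (1.27, adjusted p = 0.0368). Of 8 transcription factors FOXO3, which is known to drive BCL2L11 and BBC3, was lower (-0.57, adjusted p = 0.0127) and DDIT3, the stress factor CHOP, higher (0.66, adjusted p = 0.0467). FOXO3 was at 415 and 496 CPM in controls 1 and 2, 304 CPM in control 3 and 281 to 308 CPM in the treated libraries. FAS was at 0.635 to 1.03 CPM in controls 1 and 2, 1.68 CPM in control 3 and 1.37 to 2.51 CPM in the treated libraries. DDIT3 was at 8.70 to 10.8 CPM in controls 1 and 2, 16.5 CPM in control 3 and 11.8 to 16.9 CPM in the treated libraries. For CASP2, FAS, FOXO3 and DDIT3, as for BCL2L11, control 3 lay within the range of the treated libraries.

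Among 12 binding or turnover proteins tested, 3 were higher and 2 lower without control 3. HUWE1, a ubiquitin ligase for MCL1, was at 680 and 732 CPM in controls 1 and 2, 239 CPM in control 3 and 225 to 296 CPM in the treated libraries (log2FC -1.40, edgeR adjusted p = 0.00104). USP9X, which removes ubiquitin from MCL1, was also lower (-0.49, adjusted p = 0.0239). It was at 567 to 601 CPM in controls 1 and 2, 434 CPM in control 3 and 350 to 420 CPM in the treated libraries. Over all 6 libraries its log2FC was -0.40 (edgeR adjusted p = 0.477). DYNLL1, the dynein light chain that holds BIM, was higher (0.66, adjusted p = 0.00939), as was the 14-3-3 gene YWHAH (0.49, adjusted p = 0.0155), whose protein family binds phosphorylated BAD. YWHAQ, named after its value was seen, was the remaining call (0.38, adjusted p = 0.0431). For all 3 higher genes control 3 lay above every treated library. It was at 218 CPM for DYNLL1, against 149 to 185 CPM in the treated libraries. For YWHAH it was at 126 CPM against 98.3 to 111 CPM, and for YWHAQ at 739 CPM against 567 to 609 CPM. None of the 6 inhibitor of apoptosis genes tested was called by the quasi-likelihood test, with 3 at an unadjusted p under 0.05, while the exact test and DESeq2 each called BIRC3 higher and NAIP lower.

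**Figure D5:**
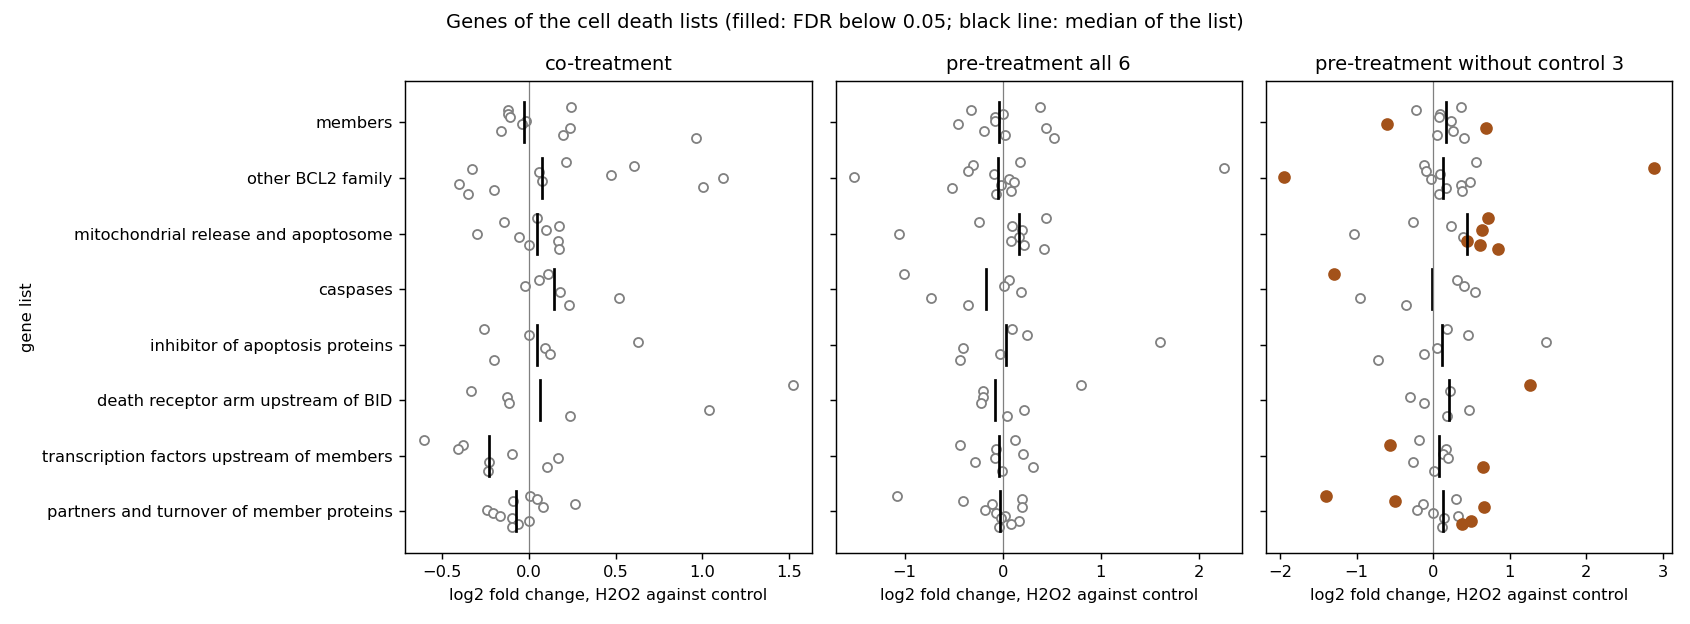
log2FC of every tested gene in the 10 members and the 7 pathway lists, 1 row per list and 1 panel per comparison, with the list median as a black line and genes called at an FDR below 0.05 filled. Filled points appear in the panel without control 3, where 5 of 9 genes of mitochondrial release are filled, all to the right of 0. The horizontal axes differ between panels.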

How the data were processed

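RNA-seq libraries of total RNA, with ribosomal RNA removed, were made from SH-SY5Y cells, 12 in all and 3 in each of 4 groups taken from the labels. Per the submitters' processing notes, reads passed FastQC 0.11.8 and cutadapt 2.10, were aligned to hg19 with HISAT2 2.1.0 and counted per gene symbol with HTSeq 0.7.2. The annotation version and strand setting are not given in the sources used here. The counts were used as deposited by the authors, raw and for each library, without the 5 closing entries for reads not counted on a gene, which held 40.0 to 59.9% of each file's total. All columns of counts were mapped to a sample. The tables that hold the authors' own comparisons (log2 fold changes, average log2 CPM, p-values and FDR) were not used.

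From these counts the comparisons were fitted with edgeR 4.0.16 in R 4.3.3 (TMM factors, quasi-likelihood test, limma 3.58.1) and, as an alternative, DESeq2 1.42.0. Genes entered a fit when their CPM reached that of 5 reads in the smallest library, in at least the number of libraries of the smaller group, and were called at an FDR below 0.05 over all genes tested. Intervals cover 95%, and a prior count of 2 was used for log2 CPM. Alternatives were the edgeR exact test, DESeq2, 1 fit over both experiments, other scalings and filters, a replicate block, a log2FC cut and leaving out each library. Positions and exon lengths come from GENCODE v44 lifted to GRCh37, which may differ from the annotation used for counting. All 10 members are named, with up to 4 called genes per list by smallest FDR and the 2 genes most like each called member. The members, lists and tests were chosen with earlier results of these data known. The fits were tested on simulated data. By a chi-square of their counts, replicates of each group differed by far more than sampling noise (at least 24.8 per degree of freedom). Whether replicate numbers pair libraries was checked by the correlation of deviations from group means, which lay between -0.273 and 0.0917, so no pairing was taken as given. Some marker genes are not reported here.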

Additional observations from a re-analysis of the deposited data

Results flagged for a closer look

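No member had a response that differed between the 2 experiments by the edgeR interaction test, but 8 genes of the pathway and marker lists did, and each value below is the log2 response under pre-treatment minus that under co-treatment. Over all 12 libraries the collagen gene COL3A1 differed by 2.36 (adjusted p = 0.0353). Without pre-treatment control 3 it differed by 2.38 (adjusted p = 0.00681), and VIM by 1.44 (adjusted p = 0.0157), both markers of mesenchymal-type cells. The family member BCL2L14 differed by -2.47 (adjusted p = 0.0100), CASP2 by -1.47 (adjusted p = 0.0187) and the MCL1 ligase HUWE1 by -1.47 (adjusted p = 0.0113). VDAC2 differed by 0.56 (adjusted p = 0.0377) and the noradrenergic factor HAND2 by 0.75 (adjusted p = 0.0432). The proliferation marker MKI67 differed by -2.07 (adjusted p = 0.0284). Over all 12 libraries edgeR called COL3A1 alone of these, and DESeq2 called COL3A1 and VIM. In each of BCL2L14, CASP2, HUWE1 and MKI67, control 3 lay within or below the range of the pre-treated libraries, apart from the other 2 controls. For MKI67 it was at 105 CPM, against 434 to 509 CPM in controls 1 and 2 and 62.7 to 189 CPM in the pre-treated libraries. HAND2 was at 439 CPM in control 3, above the other 2 controls (337 to 372 CPM) and within the pre-treated range of 344 to 456 CPM. For VDAC2 control 3, at 103 CPM, lay above all pre-treated libraries, at 79.5 to 85.4 CPM.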

How the results depend on the processing

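No member was called under any alternative in the co-treatment comparison or in the interaction over all 12 libraries. The number of all genes called moved by more than 1.5 times in several settings. For co-treatment it was 333 with the exact test, 3 with 1 fit over both experiments, 344 with DESeq2, 80 with library size only and 535 without a filter, and 18 to 223 when 1 library was left out. For pre-treatment over all 6 libraries it was 271, 68, 705, 1 and 319 under the same settings, and 0 to 6871 when 1 was left out, with 0 to 2 members. Without control 3 it was 2952 with an added log2FC cut of 1 and 1677 to 8577 when a further library was left out, and the members called were 0 with that cut, 1 with RLE factors, 1 with filterByExpr and 0 to 2 with a library left out. The interaction called 108 genes with DESeq2, 4 with library size only and 272 without a filter, and 0 to 2058 when 1 was left out. Without control 3 it called 1312 with the cut, 3386 with DESeq2, 3847 without a filter and 321 to 4499 with a library left out, with 0 to 1 members. The cause was not tested.

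With a replicate block, whose pairing the check did not support, the calls were 0 for pre-treatment over all 6 libraries, 10754 without control 3, with 4 members (BCL2L11, BID, BCL2 at 0.37 and BAD at 0.42), 0 for the interaction and 1 member, BCL2L11 at -0.76, for the interaction without control 3. Under it the log2FC turned to -0.036 for BMF and -0.14 for HRK without control 3, and to 0.017 for BAD in the interaction. No other call of a member changed with the block.

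Other members changed sign near 0. With library size only, co-treatment BAK1 was at 0.040 and BCL2L11 at 0.0027. Over all 6 pre-treatment libraries BCL2L2 was at -0.025 with 1 fit, -0.024 with DESeq2, -0.024 with RLE factors, -0.056 with library size only and -0.12 against control 3 alone, and BMF at -0.0067, -0.0037, -0.0037 and -0.044 under the first 4 of these. Without control 3, library size only gave BCL2L2 -0.13, MCL1 -0.14 and BMF -0.16, and 1 fit gave BMF -0.0030. In the interaction library size only gave MCL1 -0.067, and without control 3 it gave BCL2 -0.14, BCL2L2 -0.061, MCL1 -0.088 and BAK1 -0.024. With 1 library left out, co-treatment BAK1 ranged from -0.10 to 0.066 and BCL2L11 from -0.19 to 0.16. Over all 6 pre-treatment libraries the ranges were -0.057 to 0.094 for BCL2L2, -0.17 to 0.078 for MCL1, -0.21 to 0.24 for BAK1, -0.45 to 0.26 for BAD, -0.073 to 0.11 for BMF and -0.15 to 1.07 for HRK, and without control 3 they were -0.069 to 0.13 for BMF and -0.30 to 1.34 for HRK. In the interaction they were -0.016 to 0.36 for BCL2, -0.047 to 0.14 for MCL1, -0.19 to 0.20 for BAK1, -0.062 to 0.39 for BID, -0.28 to 0.36 for BAD and -1.14 to 0.11 for HRK, and without control 3 -0.19 to 0.56 for BCL2 and -1.30 to 0.38 for HRK.

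With the longest transcript as gene length, the mean levels became 47.6 CPM per kb for BCL2, 11.9 for BCL2L1, 9.27 for BCL2L2, 70.3 for MCL1, 11.97 for BCL2L11, 13.2 for BID, 23.2 for BAD and 9.93 for BMF, with MCL1, BCL2 and BAD still in that order. Depth limits HRK, with 4 to 43 reads per library, and BCL2A1, with 1 to 37 in the pre-treatment libraries.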
